A study of Homo sapiens with 2 samples.

Results

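The collagen genes were examined as a family in NCI-H838, an established human cell line derived from a lung adenocarcinoma. They were taken by name from the table of genes, as every symbol made of COL, a type number, A and a chain number with nothing after it. This gave 44 of 27685 genes, of which 8 encode basement membrane collagens, 11 fibrillar collagens and 25 other collagens. The names of pseudogenes and antisense RNAs carry further letters and were not taken. One culture was transfected with the pCDH plasmid carrying full-length LINC00472, which is a long noncoding RNA, while the other received the empty pCDH plasmid. Both were transfected transiently by lipofection, and total RNA was taken after 48 hours. Each group was 1 library of 1 culture, so no replicate check of any difference was possible and no p-value is given. Intervals cover counting error only.

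Collagens are the main structural proteins of the extracellular matrix, and each molecule is a helix of chains wound around each other. Fibrillar collagens assemble into the ropes that give connective tissue its strength, whereas type IV chains join into the sheet-like network of the basement membrane on which epithelial cells sit. Other types coat fibrils, anchor the basement membrane to the tissue beneath it, form beaded filaments or span the cell membrane. In the lung, basement membrane collagen lies between the epithelium and the capillaries, and fibrillar collagen is made mainly by fibroblasts.

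The LINC00472 library held 21093055 gene counts and the control library 54823706. LINC00472 itself had 5655 counts in the LINC00472 library, against 2563 in the control library, or 25.3 and 4.74 FPKM (a level corrected for both transcript length and sequencing depth, by which different genes can be compared). A gene was called higher or lower where its mean level was at least 1 CPM (counts divided by the scaled size of the library), its ratio was at least 2-fold, and its 95% counting interval excluded equality. Ratios are log2 ratios of LINC00472 over control after TMM scaling, a method that sets the libraries against each other on the bulk of their genes. By this rule 16.3% of the 14012 genes at the minimum were higher and 23.8% were lower, and their median log2 ratio was -0.19. The median of all genes was 0.11 with total-count scaling and 0.21 with upper quartile factors, so the place of equality depends on the scaling. The rule, the ratios and their intervals are against equality after TMM scaling. The median of all genes is subtracted only where this is stated. The share called higher and lower was 22.5% and 16.3% with total counts, and 25.1% and 14.2% with upper quartile factors.

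The 6 epithelial markers summed to 65.6 FPKM in the LINC00472 library, against 291 FPKM in the control library, and the keratins KRT7, KRT8 and KRT18 were lower, with KRT8 at 26.5 FPKM in the LINC00472 library, against 94.2 FPKM in the control library. CDH1 had 2.098 FPKM in the LINC00472 library, against 1.34 FPKM in the control library (log2 0.47, 95% counting interval 0.23 to 0.71), EPCAM was at -0.19 (-0.71 to 0.30), and neither met the rule. KRT19 had 0 and 44 counts in the same order of libraries. Of 4 lung lineage markers, NKX2-1 and SFTPB were listed at 0 in both libraries and SFTPC had 0 and 7 counts. NAPSA, the one at the minimum, was higher, with 2.40 FPKM in the LINC00472 library, against 0.742 FPKM in the control library (1.49, 1.03 to 1.99). Endothelial markers summed to 0.165 FPKM in the LINC00472 library, against 0.153 FPKM in the control library. Of the 2 leukocyte markers, PTPRC had 0 and 32 counts in the same order of libraries. CD68 had 9.98 FPKM in the LINC00472 library, against 14.2 FPKM in the control library (-0.70, -0.86 to -0.55), and did not meet the rule. The 7 fibroblast and pericyte markers summed to 26.8 FPKM in the LINC00472 library, against 7.55 FPKM in the control library. FAP, a membrane protease of activated fibroblasts, accounted for 25.7 and 5.12 FPKM of these sums and was the only one of the 7 called higher. LUM, the other one at the minimum, had 40 counts in the LINC00472 library, against 169 in the control library (-0.98, -1.52 to -0.49), short of the rule. The small proteoglycan DCN had 0 counts in the LINC00472 library, against 28 in the control library, and POSTN was listed at 0 in both. In the same order of libraries, ACTA2 had 3 and 57 counts, PDGFRB 16 and 60, and PDGFRA 11 and 18. In a bulk sample, fewer cells of a type and less RNA per cell cannot be told apart, and the part of other cells in the collagen ratios was not tested.

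Collagen transcripts took a larger share of the LINC00472 library. All 44 genes together had 100332 counts there and 136046 in the control library, which is 0.476% of the LINC00472 library (exact Clopper-Pearson 95% interval 0.473 to 0.479) and 0.248% of the control library (0.247 to 0.249). Of the 44 chains, 26 reached the expression minimum, and of these 11 were higher, 2 were lower and 13 met neither side of the rule. That is 42.3% higher, beside 16.3% of all genes at the minimum. The 26 had a median log2 ratio of 0.68, and 24 of them lay above the median of all genes. The class medians differed, with basement membrane collagens highest. They had a median of 1.31 over 8 genes at the minimum, fibrillar collagens 0.14 over 7, and the other collagens 0.41 over 11. The order of fibrillar and other collagens depended on the processing. Less the median of all genes, fibrillar stood above other with total counts (0.67 against 0.59) and upper quartile factors (0.67 against 0.59). The same held at a minimum of 5 CPM (1.15 against 0.71). After subtraction of medians of genes of like span, the basement membrane, fibrillar and other medians were 0.98, 0.59 and 0.76.

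**Figure D1:**
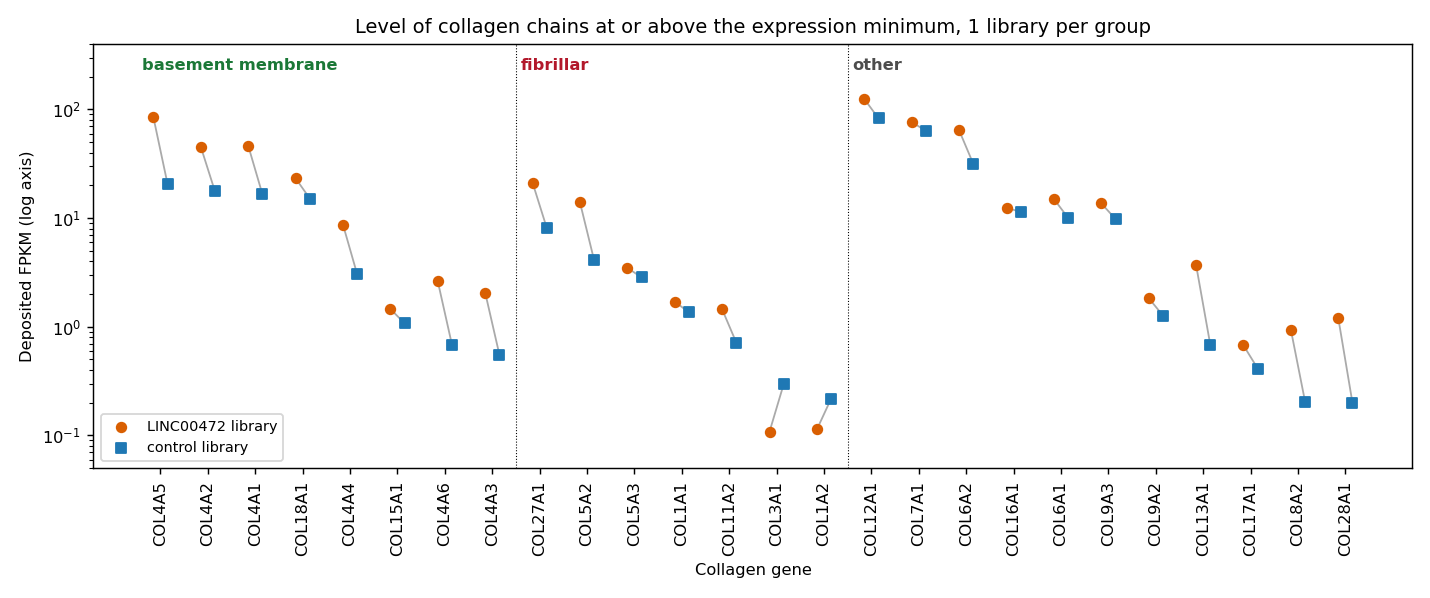
Deposited FPKM (log axis) of the 26 collagen chains at the expression minimum, grouped by class, with 1 library per group (circles LINC00472, squares control). COL12A1 is highest in both libraries, at 125 FPKM with LINC00472 and 82.6 FPKM in the control, and the type IV chains lie higher with LINC00472, whereas COL1A2 and COL3A1 lie at the bottom of the fibrillar class.

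Type IV collagen, the scaffold of the basement membrane, stood out within the family. All 6 of its chains were higher in the LINC00472 library, with log2 ratios between 1.18 and 1.86 and a median of 1.52. Summed over the chains there were 29815 counts in the LINC00472 library, against 22516 in the control library, a 2.82-fold difference after scaling (log2 1.49, 95% counting interval 1.47 to 1.52). The type IV genes lie in the genome as head-to-head pairs, each pair read outward from a shared stretch of DNA. The promoter windows of the genes read from the plus strand are shown because each overlaps the window of its partner gene and both genes of each pair were higher. The windows run from 250 bases before the start of the gene to 50 after it, 5′ to 3′, and come from RefSeq on GRCh38.p14, a later build than the hg19 named for the counts. Capitals mark the bases that also fall in the window of the partner gene.
COL4A2: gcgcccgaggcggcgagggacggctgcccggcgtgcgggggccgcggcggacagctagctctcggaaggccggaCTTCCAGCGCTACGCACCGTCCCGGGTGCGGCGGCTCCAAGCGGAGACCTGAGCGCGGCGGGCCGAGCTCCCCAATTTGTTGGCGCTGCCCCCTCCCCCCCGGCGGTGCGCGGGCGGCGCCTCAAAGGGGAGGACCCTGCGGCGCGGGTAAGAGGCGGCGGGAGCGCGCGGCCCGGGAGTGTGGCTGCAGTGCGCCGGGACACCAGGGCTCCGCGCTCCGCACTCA
COL4A3: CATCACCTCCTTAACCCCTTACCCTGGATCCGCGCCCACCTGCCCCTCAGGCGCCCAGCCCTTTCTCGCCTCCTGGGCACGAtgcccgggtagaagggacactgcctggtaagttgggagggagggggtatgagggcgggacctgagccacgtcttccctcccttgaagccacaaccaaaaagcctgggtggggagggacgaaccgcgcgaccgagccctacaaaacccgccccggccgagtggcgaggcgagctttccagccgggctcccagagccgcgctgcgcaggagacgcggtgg
COL4A5: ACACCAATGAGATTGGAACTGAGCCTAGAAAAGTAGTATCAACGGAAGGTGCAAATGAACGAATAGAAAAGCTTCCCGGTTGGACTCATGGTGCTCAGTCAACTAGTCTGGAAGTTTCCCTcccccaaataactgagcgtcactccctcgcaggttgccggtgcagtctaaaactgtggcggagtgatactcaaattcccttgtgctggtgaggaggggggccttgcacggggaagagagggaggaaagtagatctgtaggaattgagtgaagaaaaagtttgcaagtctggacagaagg
The window of COL4A2 is chr13:110307034-110307333, that of COL4A3 is chr2:227164374-227164673 and that of COL4A5 is chrX:108439588-108439887, all on the plus strand. The start sites were 127 bases apart for COL4A1 and COL4A2, 419 for COL4A3 and COL4A4, and 380 for COL4A5 and COL4A6. The windows overlapped by 226, 82 and 121 bases in that order of pairs. For COL4A6, which has 2 windows in the table, the nearer one was used.

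These windows differ in base composition. G and C make up 77.7% of the COL4A2 window, 67.7% of the COL4A3 window and 49.3% of the COL4A5 window, beside a median of 58.7% over 35116 promoter windows. The GC box GGGCGG, searched on both strands, occurs 1 time in the COL4A2 window, 2 times in that of COL4A3 and 0 times in that of COL4A5, and it is present in 45.0% of all windows. CCAAT, searched likewise, occurs 1 time for COL4A2, 0 times for COL4A3 and 2 times for COL4A5, against 34.6% of all windows with a match. TATAAA has no match in any of the 3, and 11.5% of all windows hold it. None of the matches in the 3 windows overlap each other. In all, 32 of the 44 collagen genes had a promoter window, 44 windows in total, of which 24 hold the GC box, 14 CCAAT and 8 TATAAA.

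COL4A1 and COL4A2, the chains of the ordinary type IV molecule found under most epithelia, had similar ratios. COL4A1 had 7037 counts and 46.4 FPKM in the LINC00472 library, against 6152 counts and 16.6 FPKM in the control library. COL4A2 had 6883 counts and 45.3 FPKM, against 6462 counts and 17.6 FPKM in the control library. Both were higher, with log2 ratios of 1.28 (95% counting interval 1.23 to 1.33) and 1.18 (1.13 to 1.23). Per length, COL4A1 stood at 1.02 times COL4A2 in the LINC00472 library and at 0.945 times in the control library. The change in their count ratio was 0.10 on the log2 scale (95% counting interval 0.03 to 0.17), small beside the change that both chains shared.

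COL4A5, a chain that joins with COL4A3 and COL4A4 in one type of molecule and with COL4A6 in another, had the highest ratio of the 6. It had 12971 counts and 84.8 FPKM in the LINC00472 library, against 7594 counts and 20.5 FPKM in the control library. Its log2 ratio was 1.86 (95% counting interval 1.82 to 1.90), which does not meet the intervals of COL4A1 and COL4A2. It was also the most abundant type IV chain in both libraries, and it took 43.5% of type IV counts in the LINC00472 library (95% interval 42.9 to 44.1), against 33.7% in the control library (33.1 to 34.3). Per length, COL4A5 stood at 1.83 times COL4A1 in the LINC00472 library, against 1.23 times in the control library. Its partner across the shared promoter, COL4A6, was far less abundant, at 2.62 FPKM in the LINC00472 library, against 0.682 FPKM in the control library. The ratio of COL4A6 was nonetheless near that of COL4A5, at log2 1.75 (1.53 to 1.98), and the change in their count ratio, 0.11, had an interval of -0.12 to 0.34 that includes 0. Per length, COL4A5 exceeded COL4A6 32.3-fold in the LINC00472 library, against 30.1-fold in the control library.

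COL4A3 and COL4A4, chains of the mature glomerular and alveolar basement membrane, were the scarcer pair. COL4A3 had 394 counts and 2.07 FPKM in the LINC00472 library, against 256 counts and 0.555 FPKM in the control library. COL4A4 had 2115 counts and 8.70 FPKM, against 1790 counts and 3.04 FPKM in the control library. Both were higher, with log2 ratios of 1.71 (95% counting interval 1.48 to 1.94) for COL4A3 and 1.33 (1.24 to 1.42) for COL4A4. COL4A4 was the more abundant chain in both libraries, by 4.21-fold per length in the LINC00472 library, against 5.48-fold in the control library. The change in the count ratio of COL4A3 to COL4A4 was 0.38 (0.14 to 0.63). COL4A4 overlaps RHBDD1 in the annotation, which had 479 and 891 counts in the same order of libraries, and since the strand setting of the counting is not given, reads of the overlap cannot be assigned to one of them.

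**Figure D2:**
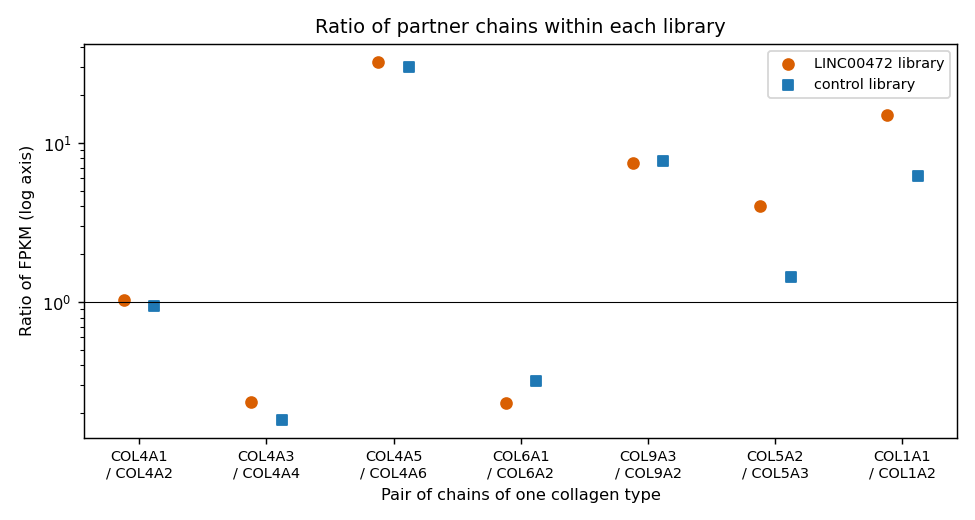
Ratio of deposited FPKM between chains of the same collagen type (log axis), with 1 library per group (circles LINC00472, squares control). COL4A1 over COL4A2 stands at 1.02 with LINC00472 and 0.945 in the control, while COL5A2 over COL5A3 stands at 4.01 with LINC00472 and 1.43 in the control.

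The remaining basement membrane collagens are multiplexins, which carry sugar chains and a C-terminal fragment known as endostatin in COL18A1. COL18A1 had 3006 counts and 23.2 FPKM in the LINC00472 library, against 4711 counts and 15.1 FPKM in the control library. Its log2 ratio of 0.44 (95% counting interval 0.37 to 0.51) did not reach the rule. COL15A1, which links the basement membrane to collagen fibrils, had 186 counts and 1.46 FPKM, against 332 counts and 1.07 FPKM in the control library. Its log2 ratio of 0.25 had an interval of -0.01 to 0.52 that includes equality. COL18A1 overlaps SLC19A1, which had 168 counts in the LINC00472 library, against 985 in the control library. With type IV taken alone as the basement membrane class, its median stood 1.71 above that of all genes, against 1.495 with the multiplexins included.

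**Figure D3:**
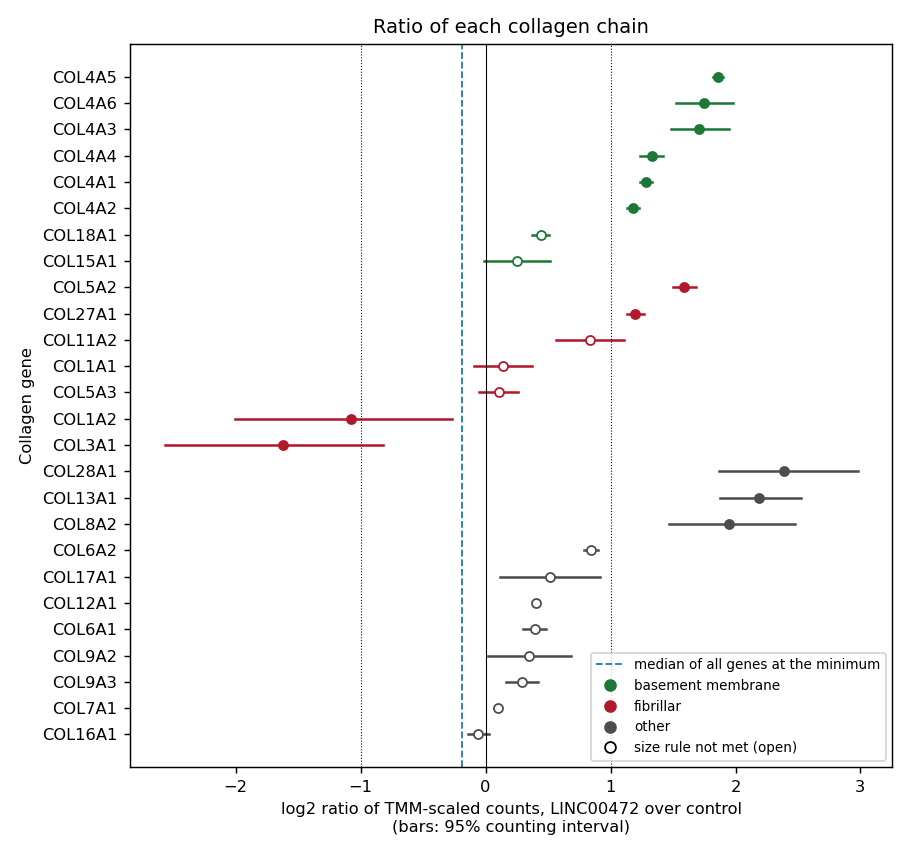
Log2 ratio of TMM-scaled counts, LINC00472 over control, for the 26 collagen chains at the expression minimum, with bars for the 95% counting interval and filled points where the size rule was met. The 6 type IV chains lie between 1.18 and 1.86, COL5A2 and COL27A1 are the filled fibrillar points on the higher side, and the dashed line marks the median of all genes at -0.19.

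Fibrillar collagens differed among themselves. Of 11 genes, 7 reached the minimum, of which 2 were higher, 2 were lower and 3 met neither side of the rule, beside 16.3% higher and 23.8% lower over all genes at the minimum. Summed over the class there were 7155 counts in the LINC00472 library, against 7100 in the control library, which is 2.14-fold higher after scaling (log2 1.10, 95% counting interval 1.05 to 1.15), and COL5A2 and COL27A1 held most of these counts. The class median stood 0.33 above that of all genes, with values from 0.030 after subtraction of length decile medians to 1.15 at a minimum of 5 CPM. COL5A2, a chain of the type V molecules that set the width of collagen fibrils, was higher. It had 2275 counts and 14.0 FPKM in the LINC00472 library, against 1609 counts and 4.08 FPKM in the control library (log2 1.59, 95% counting interval 1.496 to 1.68). COL27A1, a fibrillar chain of developing cartilage, was higher too, with 3888 counts and 21.2 FPKM, against 3605 counts and 8.11 FPKM in the control library (1.20, 1.13 to 1.26). COL5A3, another type V chain, did not follow COL5A2. It had 506 counts and 3.48 FPKM in the LINC00472 library, against 1001 counts and 2.85 FPKM in the control library (0.11, -0.05 to 0.26). COL5A2 thus stood at 4.01 times COL5A3 per length in the LINC00472 library, against 1.43 times in the control library, and their count ratio changed by 1.48 on the log2 scale (1.304 to 1.66). COL5A1, the chain shared by the common type V molecules, had 0 counts in the LINC00472 library, against 10 in the control library. Against a floor of 3 counts per library it was at least 1.57-fold lower, and its interval has an upper end at log2 -0.08.

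The collagens that make up most of the matrix of connective tissue were scarce in these cells. COL1A1, of type I collagen, had 237 counts and 1.70 FPKM in the LINC00472 library, against 458 counts and 1.36 FPKM in the control library. Its log2 ratio of 0.14 had an interval of -0.09 to 0.37. COL1A2, its partner in the type I molecule, had 15 counts and 0.114 FPKM, against 68 counts and 0.218 FPKM in the control library. It was lower, with a log2 ratio of -1.08 (95% counting interval -2.005 to -0.27). COL3A1, of the type III collagen of soft tissue, had 14 counts and 0.108 FPKM, against 93 counts and 0.297 FPKM in the control library, and it was lower too (-1.62, -2.57 to -0.82). COL1A2 and COL3A1 were the least abundant chains at the minimum in the LINC00472 library, and COL1A2 passed it with a mean of 1.01 CPM. COL1A1 exceeded COL1A2 14.96-fold per length in the LINC00472 library, against 6.23-fold in the control library. The change in their count ratio was 1.23 on the log2 scale, with a wide interval of 0.39 to 2.07. COL11A2, a cartilage chain, had 1.45 FPKM in the LINC00472 library, against 0.713 FPKM in the control library, a log2 ratio of 0.84 (0.57 to 1.11) that fell short of 2-fold with TMM. It met the rule at 1.12 with total counts, 1.22 with upper quartile factors, 1.18 with totals without the 100 most abundant genes and 1.14 after subtraction of span medians. The calls of COL1A2 and COL3A1 both rested on few reads, and COL3A1 had a mean of 1.24 CPM. With total-count scaling, upper quartile factors or a prior count of 5 only COL3A1 was lower in the family. With FPKM, where COL3A1 was at -0.39, or at a minimum of 5 CPM, neither was called. These 2 settings could not call them. The pseudocount of 0.5 added to FPKM exceeds the FPKM of both chains in both libraries, so 2-fold lower was out of reach. Both chains also lie under 5 CPM.

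Among the other collagens, the most abundant ones differed little. COL12A1, which coats the surface of fibrils, had 33926 counts and 125 FPKM in the LINC00472 library, against 54422 counts and 82.6 FPKM in the control library. It was the most abundant collagen in both, and its log2 ratio was 0.41 (95% counting interval 0.39 to 0.43). COL7A1, which forms the fibrils that anchor the basement membrane, had 16573 counts and 76.9 FPKM, against 32952 counts and 63.2 FPKM in the control library (0.10, 0.07 to 0.12). Both narrow intervals exclude equality after TMM scaling and lie well under 2-fold. COL16A1, another fibril-associated chain, had 12.5 FPKM in the LINC00472 library, against 11.4 FPKM in the control library (-0.06, -0.14 to 0.03). Of type IX, COL9A3 had 13.7 FPKM against 9.80 FPKM in the control library (0.29, 0.17 to 0.42), and COL9A2 had 1.83 FPKM against 1.27 FPKM in the control library (0.35, 0.02 to 0.68). The change in their count ratio was -0.06, with an interval of -0.41 to 0.29 that includes 0. COL9A3 overlaps TCFL5, which had 1025 counts in the LINC00472 library, against 1811 in the control library.

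Type VI collagen forms beaded filaments from COL6A1, COL6A2 and one further chain. COL6A2 had 5051 counts and 64.2 FPKM in the LINC00472 library, against 5979 counts and 31.5 FPKM in the control library, a log2 ratio of 0.85 (95% counting interval 0.79 to 0.90). COL6A1 had 1489 counts and 14.99 FPKM, against 2413 counts and 10.0 FPKM in the control library (0.39, 0.30 to 0.49). Per length, COL6A1 stood at 0.233 times COL6A2 in the LINC00472 library and at 0.319 times in the control library, and their count ratio changed by -0.45 on the log2 scale (-0.56 to -0.35). Neither met the rule with TMM, and COL6A2 did with total-count scaling (also without the 100 most abundant genes), upper quartile factors, FPKM and after subtraction of the median of genes of like length or span. COL6A3, the usual further chain, had 0 counts in the LINC00472 library, against 45 in the control library. It stayed under the minimum, and against the floor of 3 counts it was at least 7.05-fold lower, with a counting interval that ends at log2 -2.46. The other possible further chains, COL6A5 and COL6A6, were listed at 0 in both libraries.

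The other higher chains were at low levels. COL13A1, a collagen that spans the cell membrane, had 256 counts and 3.70 FPKM in the LINC00472 library, against 119 counts and 0.681 FPKM in the control library (log2 2.19, 95% counting interval 1.88 to 2.52). COL28A1, a collagen described mainly near nerves, had 100 counts and 1.20 FPKM, against 40 counts and 0.199 FPKM in the control library (2.39, 1.87 to 2.98). COL8A2, a short chain of the corneal basement membrane, had 97 counts and 0.937 FPKM, against 53 counts and 0.204 FPKM in the control library (1.95, 1.46 to 2.47). Their ratios were the highest of the family at the minimum, and their intervals were wider than those of the abundant type IV chains. COL17A1, the transmembrane collagen of hemidesmosomes, had 89 counts in the LINC00472 library, against 132 in the control library, and did not meet the rule (0.52, 0.12 to 0.92).

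The 18 chains under the minimum fell into 2 sets. COL2A1, COL6A5, COL6A6, COL9A1, COL10A1, COL19A1, COL20A1, COL22A1 and COL23A1 were listed at 0 in both libraries, which allows a level of up to 0.129 CPM in the LINC00472 library, against 0.0605 CPM in the control library. The other 9 had between 0 and 13 counts in the LINC00472 library and between 0 and 45 in the control library. COL14A1 had 12 counts in the LINC00472 library, against 0 in the control library, at least 8.51-fold higher against the floor of 3 counts. COL25A1 had 13 and 0 counts in the same order, at least 9.22-fold higher. Their counting intervals begin at log2 2.56 and 2.70. COL24A1 had 10 counts in the LINC00472 library, against 4 in the control library (log2 2.23, 0.62 to 4.54). COL8A1 had 4 and 8 counts and COL26A1 had 4 and 12, with intervals that include equality. COL11A1 and COL21A1 had 0 counts in the LINC00472 library, against 2 in the control library, under the floor in both.

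The make-up of the collagen transcripts shifted toward type IV, a comparison within each library that does not depend on the scaling. Type IV chains took 29.7% of collagen counts in the LINC00472 library (95% interval 29.4 to 30.0), against 16.6% in the control library (16.4 to 16.7). COL12A1 and COL7A1 together took 50.3% (50.02 to 50.6) and 64.2% (64.0 to 64.5) in the same order. Left out of the sums, those abundant chains did not account for all of the shift, since type IV then took 59.8% of the rest in the LINC00472 library (59.4 to 60.3), against 46.3% in the control library (45.8 to 46.7). COL4A5 did not account for all of it. Without it, the other type IV chains took 19.3% of the remaining collagen counts in the LINC00472 library (19.0 to 19.5), against 11.6% in the control library (11.4 to 11.8). On the FPKM scale, type IV made up 33.2% of the summed collagen level in the LINC00472 library, against 19.4% in the control library, and fibrillar collagens 7.35% and 5.80%.

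**Figure D4:**
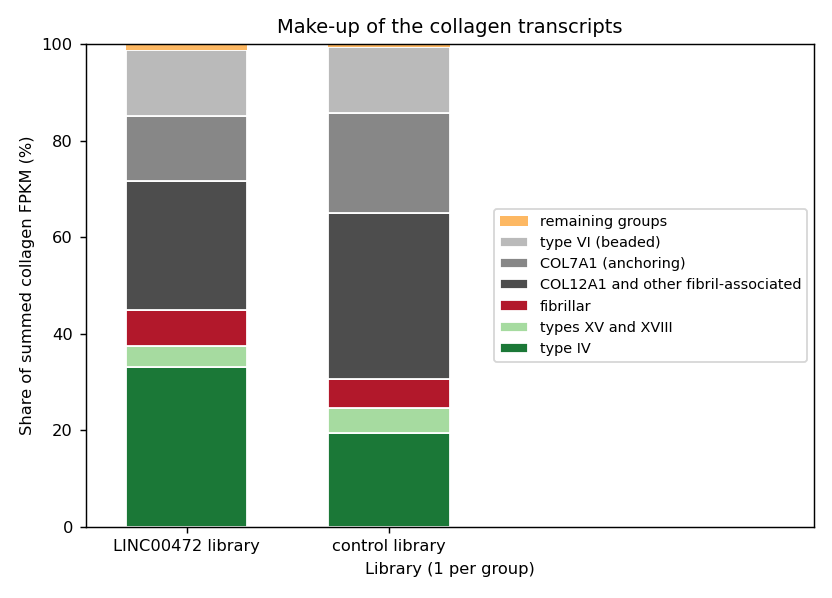
Share of the summed collagen FPKM taken by each group of chains (%, stacked bars), LINC00472 library on the left and control library on the right, 1 library each. Type IV takes 33.2% with LINC00472 and 19.4% in the control, while the fibril-associated group, which is mostly COL12A1, takes 26.7% and 34.5%.

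Transcript length moved with the ratios over the whole table and is given here beside the collagen values. Over all genes the median log2 ratio was -0.78 among the shortest transcripts (lowest decile of length) and 0.36 among the longest (highest decile), and the part of length in the collagen ratios was not tested. Collagen transcripts are long, with a median of 5994 nt among the 26 at the minimum and 3011 nt among all genes there, as implied by counts and FPKM. The 1454 genes outside the family that are at least as long as the shortest type IV transcript, at 6708 nt, had a median log2 ratio of 0.36, and 20.4% of them were higher. After subtraction of the median of genes in the same length decile, type IV ratios lay between 0.97 and 1.75. COL4A4, at 0.97, then fell short of 2-fold, as did COL27A1 at 0.84, while COL6A2 reached it at 1.05. COL12A1 stood at 0.04 and COL7A1 at -0.26 by that measure, so these abundant chains, which have long transcripts too, lay closer to genes of like length. Gene span, the length in the genome, moved with the ratios too. Over all genes the median log2 ratio was -0.24 in the lowest span decile, -0.70 in the next and 0.32 in the highest. Type IV genes had a median span of 201527.5 nt, against 27796 nt for all genes at the minimum, and the part of span was not tested. With the median of the span decile subtracted, COL4A1 at 0.96, COL4A2 at 0.86 and COL27A1 at 0.88 fell short. COL4A3, COL4A4, COL4A5 and COL4A6 lay between 1.01 and 1.54. COL12A1 stood at 0.28 and COL7A1 at 0.40 by this measure. The median was then 1.20 for type IV and 0.68 for the other chains, against 1.52 and 0.40 before.

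**Figure D5:**
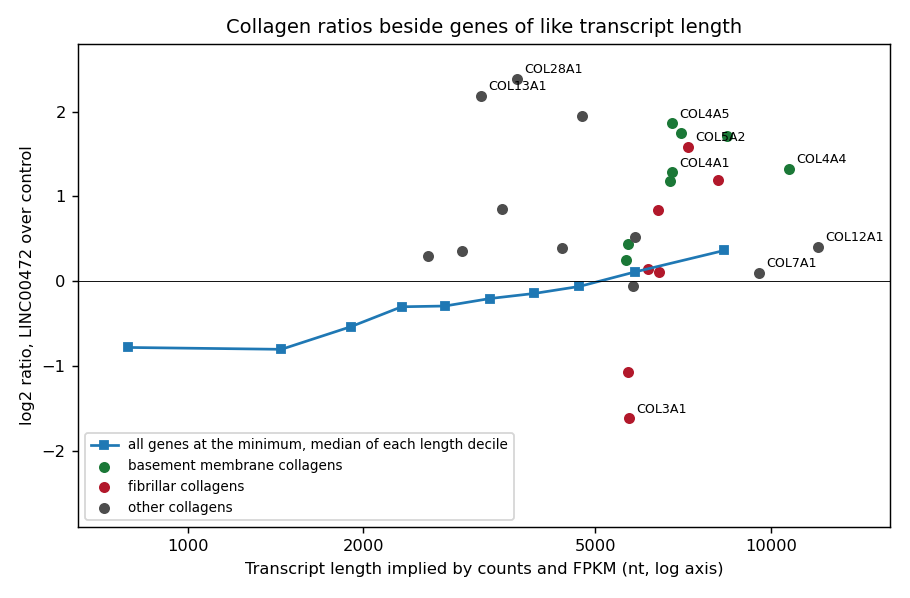
Log2 ratio, LINC00472 over control, against transcript length implied by counts and FPKM (nt, log axis), for the collagen chains at the minimum (points) and for the median of each length decile of all genes (line with squares). The line runs from -0.78 to 0.36, and the type IV chains lie above it while COL12A1 and COL7A1 lie close to it or under it.

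Genes that process collagen were counted by the same rule. Of 34 listed genes for modification, folding, export, propeptide removal and crosslinking, 29 reached the minimum, of which 2 were higher and 1 was lower, with a median log2 ratio of 0.27, beside 16.3% higher and 23.8% lower over all genes at the minimum. With the receptors included, higher calls numbered 5, and 8 or 9 with total counts, upper quartile factors or subtraction of length or span medians. The list was drawn up for the pathway, with earlier results of these data known. None of the 12 genes for prolyl and lysyl hydroxylation met the rule, and their log2 ratios lay between -0.87 and 0.74. P4HA1, a catalytic subunit of the enzyme that stabilizes the collagen helix, had 44.6 FPKM in the LINC00472 library, against 44.4 FPKM in the control library (-0.18, 95% counting interval -0.25 to -0.12). The chaperone SERPINH1, known as HSP47, had 166 FPKM in the LINC00472 library, against 234 FPKM in the control library (-0.68, -0.71 to -0.65). PPIB, a prolyl isomerase of the endoplasmic reticulum, was the one that was lower, at 107 FPKM in the LINC00472 library, against 267 FPKM in the control library (-1.50, -1.56 to -1.44). LOX, an enzyme that crosslinks fibrils, was higher at 3.81 FPKM against 1.05 FPKM in the control library (1.48, 1.27 to 1.71). ADAMTS14, which removes the N-terminal propeptide of fibrillar chains, was higher with 91 counts against 85 in the control library (1.18, 0.75 to 1.63). PPIB has a short transcript, of 1067 nt, where the median of all genes was low as well. After subtraction of length or span medians, PPIB fell short of 2-fold.

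Of 8 collagen receptors, 7 reached the minimum, and 3 were higher and 0 lower, beside 16.3% and 23.8% of all genes at the minimum. ITGA2, a subunit of a collagen-binding integrin, had 4.87 FPKM in the LINC00472 library, against 1.49 FPKM in the control library (log2 1.53, 95% counting interval 1.38 to 1.67). MRC2, a receptor that takes up collagen for breakdown, had 43.6 FPKM in the LINC00472 library, against 12.9 FPKM in the control library (1.57, 1.51 to 1.62). ITGA10, another collagen-binding subunit, was higher at low level, with 46 counts against 33 in the control library (1.55, 0.89 to 2.26). ITGB1, the beta subunit these integrins share, was at log2 0.19 (0.18 to 0.21), and the receptor kinases DDR1 and DDR2 were at -0.49 and 0.49, short of the rule.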

How the data were processed

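Total RNA of 2 NCI-H838 cultures was sequenced, with 1 library in each group as named by the titles. The authors deposited whole-number read counts per gene, not normalized, and FPKM, per the file headers. The counts of both single-library tables were identical to the joint table. Per the submitters' processing notes, the software included StringTie 1.3.4b, HISAT2 2.1.0, Trimmomatic and bcl2fastq 2.20.0, and the build was hg19, in roles not given in the sources used here, nor is a strand setting. Counts were scaled with TMM in edgeR 4.0.16 (R 4.3.3; factors 1.11 for LINC00472 and 0.905 for control). Log2 ratios had 0.5 counts added in proportion to library size. Intervals of ratios are exact conditional 95% intervals, those of shares are Clopper-Pearson, and those of changes in the ratio of 2 chains use the normal approximation on the log scale. All cover only counting error, because each group held 1 library. With 21093055 and 54823706 counts they are narrow for abundant chains and wide for scarce ones. Reads can share a molecule, and the intervals do not allow for this. A count of 0 was set to a floor of 3 counts per library for bounds.

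The members, classes, lists and tests were chosen with earlier results of these data known. Every chain at the minimum is named. From the pathway list, called genes are named together with P4HA1, SERPINH1, LOX and ITGA2, while ITGB1, DDR1 and DDR2 were added after their values were seen, as was the overlap of COL4A4, COL18A1 and COL9A3 with neighbours. The chains left out of shares, and the pairs compared (9 in all), were also chosen after values were seen. All 42 pathway genes matched, 5 of them by a newer symbol. Implied lengths come from counts and FPKM. Gene span came from RefSeq on GRCh38.p14 for 99.7% of genes at the minimum, by gene ID. Alternatives were DESeq2 1.42.0 size factors, total counts (also without the 100 most abundant genes), a prior count of 5, upper quartile factors, FPKM plus a pseudocount of 0.5 (called at the same minimum and fold, without an interval), other minimums, other class membership, and subtraction of decile medians of length. Subtraction for gene span was chosen after seeing the data. Calculations ran in Python 3.11.15 (scipy 1.17.1, pandas 2.3.3, numpy 2.4.6) and plots in matplotlib 3.10.9.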

Additional observations from a re-analysis of the deposited data

How the results depend on the processing

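All 6 type IV chains met the rule under the main setting and under each alternative except subtraction of decile medians, which left 5 of them for length and 4 for gene span. The number of higher chains stayed between 9 (of 20 at 5 CPM) and 14 (of 33 at 0.1 CPM, of 35 with no minimum), beside 11 of 26 as reported. Over all genes the share higher was 11.6%, 20.5%, 18.4% and 16.3% in that order, and at most 25.1%, with upper quartile factors. The number of lower chains, 2 as reported, was 1 with total counts (with or without the 100 most abundant genes), upper quartile factors, a prior count of 5 or gene span, 0 with FPKM or at a minimum of 5 CPM, and 4 at 0.1 CPM or with no minimum. Over all genes the share lower ran from 14.2% with upper quartile factors to 26.2% at 5 CPM. It was 22.0% at 0.1 CPM and 19.3% with no minimum. Class medians are given less the median of all genes. The basement membrane median, 1.495 as reported, was 1.37 with FPKM, 1.35 at 0.1 CPM, 1.62 at 5 CPM, 1.37 with no minimum, 1.12 for length, 0.98 for gene span, 1.71 for type IV alone and 1.42 with COL7A1 and COL17A1. The fibrillar median, 0.33, was 0.67 with total counts, 0.67 with upper quartile factors, 1.15 at 5 CPM, 0.183 at 0.1 CPM, 0.182 with no minimum, 0.030 for length and 0.59 for gene span. COL1A2 fell under the minimum with total counts and upper quartile factors, and COL1A2 and COL3A1 did so at 5 CPM. With FPKM, the pseudocount of 0.5 exceeds the FPKM of COL1A2 and COL3A1, so neither could be called lower. The median of the other collagens, 0.60, was 0.56 with FPKM, 0.44 at 0.1 CPM, 0.71 at 5 CPM and 0.45 with no minimum. It was 0.58 with totals without the 100 most abundant genes and 0.76 for gene span. With total counts or upper quartile factors it was 0.59, under the fibrillar median. Higher genes of the pathway and receptor list numbered 5 as reported, 8 with total counts, 9 with upper quartile factors, 9 for length and 9 for gene span. The share of all genes higher was 16.3%, 22.5%, 25.1%, 20.4% and 20.1% in that order. Lower ones numbered 1 as reported, 1 for length and 0 for gene span, beside 23.8%, 14.8% and 16.2% of all genes. PPIB fell short of 2-fold for length and for gene span, so the lower gene for length was a different one. No called chain changed sign under the alternatives. The cause of these shifts was not tested. No paired analysis was possible because each group held 1 library, and for the same reason no replicate could be left out. Depth limits the chains under the minimum, for which a count of 0 in the shallower LINC00472 library allows up to 0.129 CPM.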
